A study of Homo sapiens with 9 samples.

Results

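The Eph receptors and their ephrin ligands, the semaphorins with their plexin and neuropilin receptors, and the SLIT ligands with their ROBO receptors are cell guidance genes. They were chosen by symbol alone, as every EPHA, EPHB, EFNA, EFNB, SEMA3 to SEMA7, PLXN, NRP, ROBO1 to ROBO4 and SLIT1 to SLIT3 entry of the count table. These are 60 of the 25382 entries, made up of 8 ephrins, 14 Eph receptors, 7 secreted class 3 semaphorins, 13 membrane-bound semaphorins, 9 plexins, 2 neuropilins, 4 ROBO receptors and 3 SLIT ligands. Their transcripts were measured in 501mel, an established human melanoma cell line, grown in serum-containing medium. TBX3, a T-box transcription factor, was the target of the study, whose title links it to signalling through the melanocortin receptor MC1R and to melanoma predisposition. Cells were collected 24 h after lipofection with 1 of 3 dicer-substrate siRNAs (DsiRNAs). The groups were the control DsiRNA NC1, DsiRNA 13.6 against TBX3 and DsiRNA 13.8 against TBX3. Each group held 3 libraries of total RNA, which the labels call biological replicates without saying that they came from separate cultures. All the groups therefore share the line, the lipofection and the time, and no untransfected cells were analysed here.

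In the Eph system both partners sit on cell surfaces, A-type ephrins by a lipid anchor and B-type ephrins by a transmembrane stretch, and contact signals into both cells. Semaphorins act through plexins, whose inner part regulates small GTPases and the cytoskeleton, and the secreted ones mostly need a neuropilin as co-receptor. SLIT proteins are secreted and bind ROBO receptors. Members of each system have been studied as cues that repel or attract growing axons, and several also steer the migration of neural crest cells, from which melanocytes arise.

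Ligands and receptors of these systems changed with the TBX3 DsiRNAs, where calls were widespread among all genes. With 13.6, 48.1% of the tested guidance genes and 49.9% of all genes were called. The shares were 68.5% and 55.5% with 13.8, and 61.1% for both between the DsiRNAs. With both DsiRNAs the ligand genes EFNA1, SEMA3A and SEMA3D rose and SLIT1 fell, SEMA3A by a log2 fold change of 0.70 with 13.6 and 2.41 with 13.8. With 13.8 the receptor genes EPHA3, ROBO1 and ROBO2 and the ligand gene SLIT2 rose, while with 13.6 the SEMA3F gene and its receptor gene NRP2 rose. ROBO2 was also called higher with 13.6, at 0.40 against 1.77 with 13.8. EFNB3, EPHA4, SEMA3C and SEMA3F were called in opposite directions with the 2 DsiRNAs, although the SEMA3F call with 13.8 did not hold without each of 4 libraries in turn.

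TBX3 itself measured 88.6, 83.8 and 84 CPM (counts scaled to library size) in the control libraries, 46.4, 41 and 39.4 with DsiRNA 13.6 and 36.1, 33.7 and 36.2 with DsiRNA 13.8. Its log2 fold change was -1.02 with 13.6 and -1.27 with 13.8, so both left TBX3 transcript, and it was 0.26 higher with 13.6 than with 13.8 (edgeR adjusted p = 0.0070). Libraries held 38105026 to 52272147 counted reads, of which 0.291% to 0.396% fell on the guidance genes. Control replicate 3 had the lowest of these shares, at 0.291% against 0.361% and 0.339% in the other control libraries. It was also the lowest control library for 39 of the 54 guidance genes tested, a count not made over all genes. Without it, 20 guidance genes were higher and 9 lower with 13.6, and 24 higher and 12 lower with 13.8. Leaving out each library in turn, the count of all genes called ranged from 6304 to 7504 with 13.6, against 7357 with none left out. With 13.8 it ranged from 7164 to 8450, against 8169. The labelled cell type held, since 8 pigment cell markers summed to 13400 to 18200 CPM over all libraries, while all 8 endothelial markers were under 1 CPM in every group.

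Of 8 tested fibroblast markers, 8 were higher with 13.8 (COL1A1, COL1A2, DCN, LUM, PDGFRA, FAP, THY1 and POSTN) and 2 with 13.6 (THY1 and POSTN). Among all genes 27.5% were higher with 13.8 and 24.9% with 13.6. DCN passed the filter on low counts only through the 13.8 group, where it was high, so its call is a description. The 10 listed fibroblast markers summed to 5.74 to 7.07 CPM in control libraries, 7.43 to 9.18 with 13.6 and 28.3 to 29.3 with 13.8. Of the Schwann cell and glial markers, PMP22, NGFR, CDH19 and ERBB3 were among those higher and MBP was lower with both DsiRNAs. Neuronal markers summed to 31.7 to 38.5 CPM in control libraries, 22.6 to 25.6 with 13.6 and 43.7 to 51.3 with 13.8, where NEFL was higher and SNAP25 lower with both and SYP was lower with 13.6 and higher with 13.8. Of the leukocyte and endothelial markers, CD68 was higher with 13.6, LYZ higher and ITGAM lower with 13.8, ESAM higher with both and VWF lower with 13.6. ITGAM reached the low-count filter in every library of the control group alone, where it was highest, so its call is a description. Of the pigment cell markers, TYR and S100B were higher and MLANA lower with both. TYRP1 and DCT were lower with 13.6 and higher with 13.8, SOX10 was higher with 13.6 and lower with 13.8, and MITF was lower with 13.8. The part of these shifts in the results on the guidance genes was not tested, and in bulk RNA fewer cells of a type and less RNA per cell cannot be told apart.

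A filter on low counts (about 0.214 CPM in at least 3 libraries) kept 54 of the 60 guidance genes, and a gene was called when its edgeR adjusted p over 14731 genes was under 0.05. Changes are on the log2 scale with 1 standard error (SE), and a change named between the DsiRNAs is 13.6 minus 13.8. The SE was derived from the edgeR test statistic, with the spread estimated over all 9 libraries (3 a group). With 13.6, 19 guidance genes were higher and 7 lower than in control cells, which is 48.1% called against 49.9% of all genes (24.9% higher and 25% lower). With 13.8, 25 were higher and 12 lower, which is 68.5% called against 55.5% of all genes (27.5% higher and 27.9% lower). Their median log2 fold change was 0.21 with 13.6 and 0.30 with 13.8, where the medians over all genes were -0.009 and 0.013. Both comparisons use the same 3 control libraries. Set directly against each other, 13.6 was higher than 13.8 for 11 guidance genes and lower for 22, which is 61.1% called, the same as the 61.1% of all genes (30.9% higher and 30.2% lower). The median of this difference was -0.16 for the guidance genes and -0.02 for all genes. These counts and medians include NRP1, called higher with both DsiRNAs, and EPHA8, called lower with 13.6 than with 13.8. NRP1 passed the filter only through the 13.6 group and EPHA8 only through the 13.8 group, where each was high, so their calls are a description. Calls were made for 45 of the 54 in at least 1 comparison. The same share over all genes was not computed, and each single comparison called 49.9% to 61.1% of all genes.

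The counts for genes lower with 13.8, and for genes higher with 13.6 than with 13.8, fell when some single libraries were left out. The 12 genes lower with 13.8 became 7 without control replicate 1, and 6 without control replicate 2 or without replicate 2 or 3 of 13.8. The 11 genes higher with 13.6 than with 13.8 became 7 without replicate 2 of 13.8. The count of all genes called moved as well when each library was left out in turn. It ranged from 7164 to 8450 with 13.8, against 8169 in the main fit. Between the DsiRNAs it ranged from 8021 to 9603, against 8995.

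**Figure D1:**
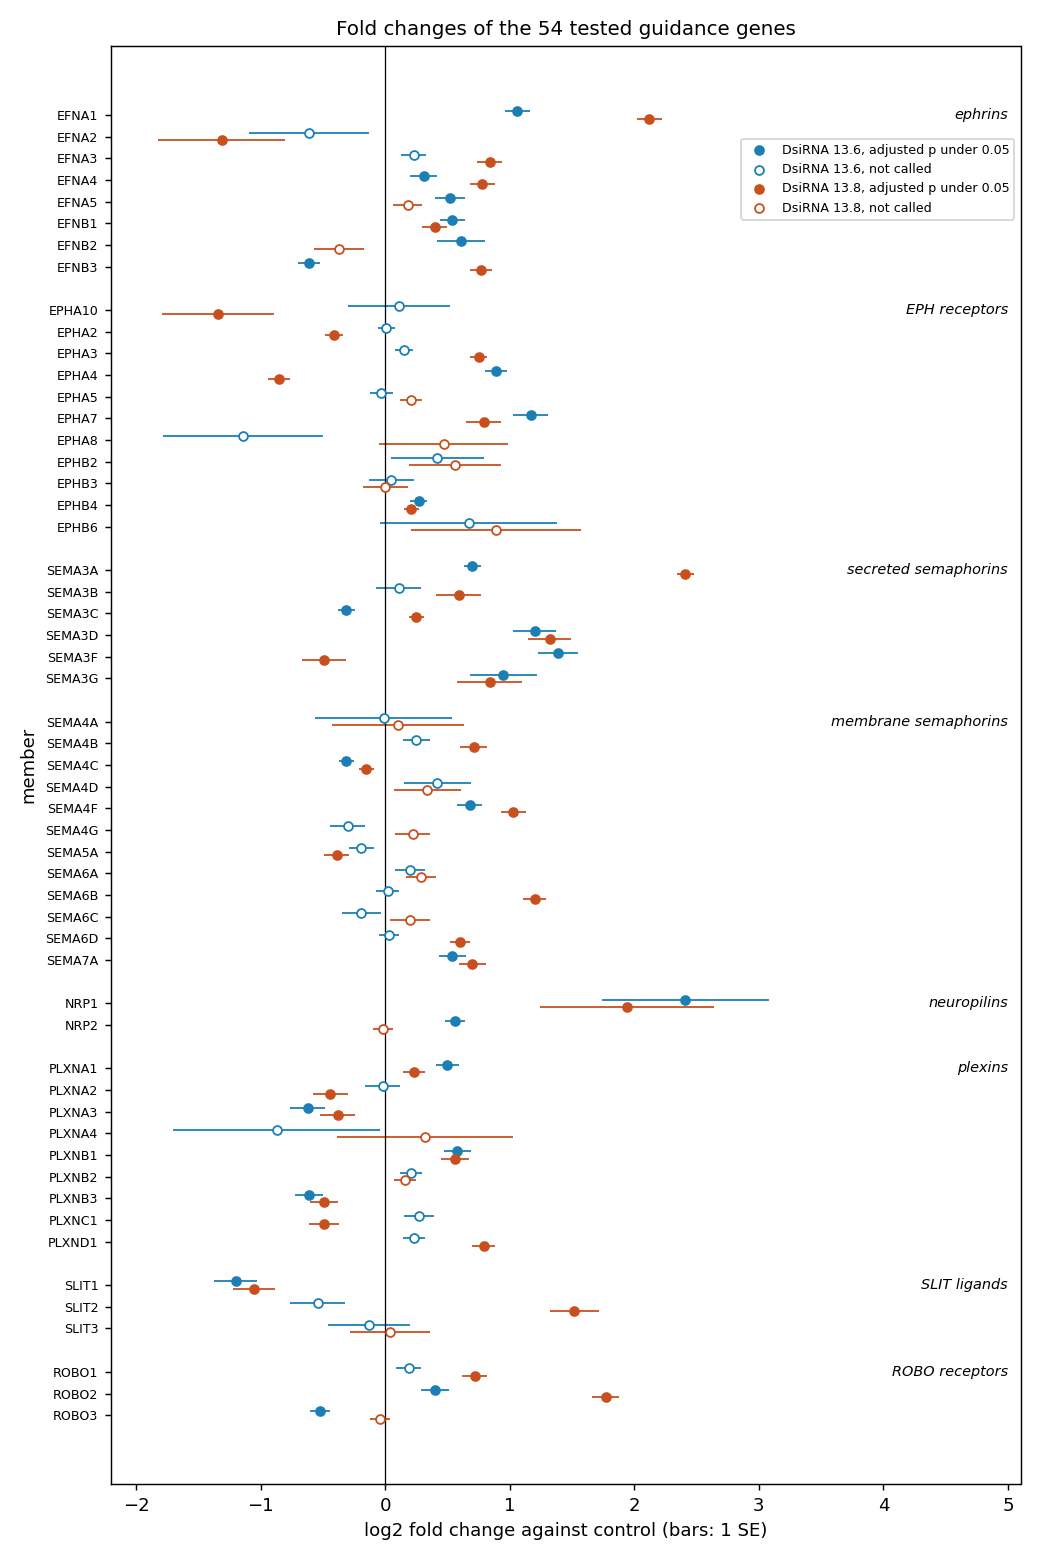
Log2 fold change against control (horizontal axis) of the 54 tested guidance genes, by role, for DsiRNA 13.6 (blue) and 13.8 (orange). Bars are 1 SE derived from the edgeR test, with the spread estimated over all 9 libraries (3 a group). Filled points passed an adjusted p of 0.05, and SEMA3A and EFNA1 lie farthest to the right with 13.8 among the genes with narrow bars, at 2.41 and 2.12.

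SEMA3D, EFNA1 and SLIT1 are shown with the 250 bases upstream of their RefSeq start (GRCh38.p14), because T-box factors are known to bind the word AGGTGTGA and its parts AGGTGT and GTGTGA. SEMA3D was higher with both DsiRNAs, as was EFNA1, while SLIT1 was lower with both. They are the members whose smaller change over both DsiRNAs was largest, along with NRP1. Sequences read 5′ to 3′ on the gene's strand, and capitals mark a match to AGGTGT or GTGTGA on either strand.
SEMA3D, chr7:85187057-85187306, minus strand: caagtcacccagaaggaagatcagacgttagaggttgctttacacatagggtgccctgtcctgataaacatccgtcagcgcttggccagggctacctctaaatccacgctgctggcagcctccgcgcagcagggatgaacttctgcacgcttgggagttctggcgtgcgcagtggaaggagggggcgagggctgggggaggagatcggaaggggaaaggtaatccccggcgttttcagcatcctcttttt
EFNA1, chr1:155127626-155127875, plus strand: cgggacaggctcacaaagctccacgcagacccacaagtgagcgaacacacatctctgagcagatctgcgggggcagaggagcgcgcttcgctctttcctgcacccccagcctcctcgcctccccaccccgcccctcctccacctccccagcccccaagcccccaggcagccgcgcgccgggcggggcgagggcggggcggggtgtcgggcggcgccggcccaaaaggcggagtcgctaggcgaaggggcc
SLIT1, chr10:97185960-97186209, minus strand: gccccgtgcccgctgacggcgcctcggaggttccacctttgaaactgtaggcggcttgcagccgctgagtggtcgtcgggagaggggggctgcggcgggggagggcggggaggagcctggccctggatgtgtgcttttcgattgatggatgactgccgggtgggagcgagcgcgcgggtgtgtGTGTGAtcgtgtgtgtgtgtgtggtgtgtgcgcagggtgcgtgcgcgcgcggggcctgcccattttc
SLIT1 held 1 match to GTGTGA inside a run of alternating G and T, and the stretches of SEMA3D and EFNA1 held none. Their G and C content was 57.6% for SEMA3D, 73.2% for EFNA1 and 68.4% for SLIT1.

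Over the full promoter window (250 bases before to 50 after the start), 54 of the 60 guidance genes matched an entry. EFNB3, EPHA10, NRP1, SEMA3A, SEMA6A and SEMA6B did not. AGGTGT stood in 1 of the 54, EPHB1, which is 1.85% against 11.4% of 27305 promoters. GTGTGA stood in 8 (14.8%, against 11.9% of all promoters), namely EPHA4, EPHA5, ROBO2, SEMA3C, SEMA3D, SEMA4G, SEMA5B and SLIT1. The SEMA3D and ROBO2 matches lie after the start. The joined word AGGTGTGA, which contains both shorter ones, stood in 0 of the 54 and in 0.982% of all promoters. A match is a description of the letters and not a binding site.

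Of the 8 ephrins, all tested, 5 were higher and 1 lower with each DsiRNA (median 0.42 with 13.6 and 0.58 with 13.8). That is 75% called with each, against 49.9% of all genes with 13.6 and 55.5% with 13.8. EFNA1 had the largest rise of the 8 with each DsiRNA, and EFNB3 was called lower with 13.6 and higher with 13.8. Summed per exon length, the ephrins came to 28.7 ± 0.802 CPM per kilobase of exon in control cells, 34.9 ± 1.09 with 13.6 and 53.0 ± 2.33 with 13.8 (SD, n = 3). EFNA3 and EFNA4 made up most of this in every group, at 37.9% and 23.8% in control cells. EFNA1 held 7.82% in control cells, 13.5% with 13.6 and 18.4% with 13.8.

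EFNA1, a lipid-anchored ligand of EPHA2, measured 4.59, 4.19 and 4.18 CPM in the control libraries, 9.40, 9.46 and 8.25 with 13.6 and 18.6, 19.1 and 18.6 with 13.8. The groups stood apart in steps, with no overlap. It rose 2.09-fold with 13.6, a log2 change of 1.06 (SE 0.10, adjusted p = 1.3e-06), and 4.34-fold with 13.8, a log2 change of 2.12 (SE 0.10, adjusted p = 1.7e-09). The difference between the DsiRNAs was -1.05 (SE 0.09, adjusted p = 3.5e-07). EFNA3, another A-type ephrin, measured 19.4, 17.6 and 21.1 CPM in control cells, 22.5, 20.5 and 25.3 with 13.6 and 31.6, 35.7 and 36.7 with 13.8. Its 13.8 libraries lay above all others and it rose by 0.84 (SE 0.10, adjusted p = 7.1e-06), while the 13.6 and control libraries overlapped and the change of 0.23 (SE 0.10, adjusted p = 0.0627) did not pass. EFNA4 measured 8.53, 8.06 and 9.36 CPM in control cells, 9.65, 11.4 and 11 with 13.6 and 14.2, 16.5 and 13.9 with 13.8. All 3 groups were separate, and EFNA4 rose by 0.31 (SE 0.11, adjusted p = 0.0287) with 13.6 and 0.78 (SE 0.10, adjusted p = 3.2e-05) with 13.8. Both were lower with 13.6 than with 13.8, with differences of -0.61 (SE 0.09, adjusted p = 9.8e-05) for EFNA3 and -0.47 (SE 0.10, adjusted p = 0.00138) for EFNA4. EFNA4, EFNA3 and EFNA1 are adjacent protein-coding genes in the RefSeq order. The 13.6 value of EFNA3 passed without control replicate 3 (0.30) or replicate 2 of 13.6 (0.30). The 13.6 call of EFNA4 did not hold without control replicate 1 (0.30) or 2 (0.26), or replicate 2 (0.26) or 3 (0.28) of 13.6.

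EFNA5, a repellent for retinal axons, measured 6.49, 7.77 and 5.53 CPM in control cells, 9.43, 9.91 and 9.06 with 13.6 and 7.46, 7.19 and 7.78 with 13.8. The 13.6 libraries were the highest, and those of 13.8 overlapped the controls. The log2 change was 0.52 (SE 0.12, adjusted p = 0.00277) with 13.6 and 0.18 (SE 0.12, adjusted p = 0.219) with 13.8, and the DsiRNAs differed by 0.34 (SE 0.12, adjusted p = 0.0235). The 13.8 value passed without control replicate 2 (0.31), and the difference did not hold without replicate 2 of 13.6 (0.31) or of 13.8 (0.31). EFNB1, a transmembrane ephrin mutated in craniofrontonasal syndrome, measured 7.40, 8.63 and 7.53 CPM in control cells, 11.3, 11.3 and 11.6 with 13.6 and 9.28, 10.5 and 11.2 with 13.8. Every knockdown library exceeded every control library, and EFNB1 rose by 0.54 (SE 0.10, adjusted p = 6.7e-04) and 0.40 (SE 0.10, adjusted p = 0.00462). The EFNB1 difference between the DsiRNAs (0.14, adjusted p = 0.238) did not pass.

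EFNB2, the arterial ligand of EPHB4, was among the low ephrins, at 2.08, 2.18 and 2.20 CPM in control cells, 3.90, 3.02 and 2.95 with 13.6 and 2.01, 1.76 and 1.22 with 13.8. The 13.6 libraries lay above and the 13.8 libraries below the controls. The rise with 13.6 was 0.61 (SE 0.19, adjusted p = 0.0194), the 13.8 change of -0.37 (SE 0.20, adjusted p = 0.137) did not pass, and the DsiRNAs differed by 0.98 (SE 0.20, adjusted p = 7.4e-04). Without replicate 1 of 13.6 the rise of EFNB2 was lost (0.47). EFNB3, an ephrin of the spinal cord midline that EPHA4 recognises, moved in opposite directions. It measured 12.4, 14.5 and 13 CPM in control cells, 8.39, 8.97 and 8.73 with 13.6 and 23.7, 23.5 and 20.5 with 13.8, with no overlap between any groups. EFNB3 was called lower with 13.6, at -0.61 (SE 0.09, adjusted p = 1.3e-04), and higher with 13.8, at 0.77 (SE 0.09, adjusted p = 8.9e-06). The difference between the DsiRNAs was -1.38 (SE 0.09, adjusted p = 4.4e-08). EFNA2 had few reads, 70 in the control group, 48 with 13.6 and 33 with 13.8. Its ratio was 0.395 with 13.8 (exact 95% interval 0.253 to 0.606, counting error only), and 0.647 with 13.6 (0.438 to 0.947). Its fitted changes were -0.61 (SE 0.48, adjusted p = 0.312) with 13.6 and -1.31 (SE 0.51, adjusted p = 0.0413) with 13.8, and 0.70 between the DsiRNAs. The 13.8 call of EFNA2 did not hold in a fit of the 2 groups alone (-1.30). It also did not hold without control replicate 1 (-0.92) or 2 (-1.38), replicate 2 (-1.31) or 3 (-1.31) of 13.6, or replicate 2 (-1.55) or 3 (-0.88) of 13.8.

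Among the Eph receptors, 11 of 14 were tested. EPHA3 rose with 13.8, EPHA4 rose with 13.6 and fell with 13.8, and EPHA7 rose with both. With 13.6, 3 were higher and 0 lower (EPHA4, EPHA7 and EPHB4, median 0.15), and with 13.8, 3 were higher and 3 lower (median 0.21). That is 27.3% called with 13.6 and 54.5% with 13.8, against 49.9% and 55.5% of all genes. In control cells EPHA3 was highest per exon length, at 34.4 ± 1.48 CPM per kilobase of exon, ahead of EPHA2 at 20.1 ± 1.03, EPHA4 at 12.8 ± 1.23 and EPHB4 at 8.78 ± 0.617 (SD, n = 3). Neighbours in this order did not overlap in their control libraries. EPHA3 held 42.3% of the summed Eph receptor level in control cells, 38.8% with 13.6 and 60% with 13.8. EPHA4 held 15.7%, 24.0% and 7.32% in the same order. The sum itself was 81.5 ± 3.99, 98.6 ± 2.98 and 96.5 ± 5.35 CPM per kilobase of exon.

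EPHA3, a receptor found in leukaemia and melanoma, measured 225, 241 and 223 CPM in control cells, 266, 243 and 256 with 13.6 and 412, 359.8 and 387 with 13.8. The 13.8 libraries lay far above the rest, and the 13.6 libraries lay just above the controls. EPHA3 rose by 0.75 (SE 0.07, adjusted p = 6.5e-07) with 13.8, the 13.6 change of 0.15 (SE 0.07, adjusted p = 0.0746) did not pass, and the DsiRNAs differed by -0.60 (SE 0.07, adjusted p = 4.4e-06). EPHA4, which binds both A- and B-type ephrins, moved in opposite directions, at 83.4, 93.4 and 77.3 CPM in control cells, 166, 153 and 152 with 13.6 and 53.1, 41.9 and 45.5 with 13.8. No 2 groups overlapped. EPHA4 rose 1.85-fold with 13.6, by 0.89 (SE 0.09, adjusted p = 3.3e-06), and was lower with 13.8, at -0.85 (SE 0.09, adjusted p = 3.6e-06). Its difference between the DsiRNAs was 1.74 (SE 0.09, adjusted p = 5.6e-09). EPHA7, a receptor of the embryonic brain, measured 1.95, 2.37 and 2.35 CPM in control cells, 4.75, 4.98 and 5.26 with 13.6 and 3.49, 3.72 and 4.29 with 13.8. Both knockdown groups lay above the controls, with rises of 1.17 (SE 0.14, adjusted p = 1.6e-05) and 0.79 (SE 0.14, adjusted p = 3.9e-04). The EPHA7 difference of 0.38 (SE 0.13, adjusted p = 0.0237) did not hold without replicate 2 (0.39) or 3 (0.34) of 13.6, or replicate 1 (0.32) or 2 (0.36) of 13.8.

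EPHA10, which has no active kinase, was low and spread widely, at 1.04, 1.51 and 0.733 CPM in control cells, 1.09, 1.19 and 1.25 with 13.6 and 0.731, 0.436 and 0.122 with 13.8. The 13.8 libraries were the lowest. Its total was 64 reads with 13.8 against 136 in control cells, a ratio of 0.395 (exact 95% interval 0.288 to 0.535, counting error only). EPHA10 was called lower with 13.8, at -1.34 (SE 0.45, adjusted p = 0.0209), the 13.6 change of 0.11 (SE 0.41, adjusted p = 0.843) did not pass, and the DsiRNAs differed by 1.45 (SE 0.44, adjusted p = 0.0117). The 13.8 call of EPHA10 did not hold without control replicate 2 (-1.05) or replicate 2 (-1.36) or 3 (-0.91) of 13.8.

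Smaller called changes were found for EPHA2, EPHA5 and EPHB4. EPHA2, a receptor linked to melanoma cell invasion, changed by 0.01 with 13.6, which did not pass, and was lower with 13.8, at -0.41 (SE 0.07, adjusted p = 1.6e-04). The DsiRNAs differed by 0.42 for EPHA2. EPHB4, the venous receptor of EFNB2, was higher with both, by 0.27 and 0.21, and its 13.8 call did not hold without control replicate 2 (0.18). EPHA5 changed by -0.03 and 0.21, neither of which passed. The EPHA5 difference of -0.24 (SE 0.09, adjusted p = 0.0287) did not hold without any 1 of the 13.6 libraries (-0.25 to -0.23), replicate 1 (-0.15) or replicate 3 (-0.25) of 13.8. The 13.8 value of EPHA5 passed without control replicate 2 (0.26), without replicate 2 of 13.8 (0.29), or when only genes averaging 50 or more reads were kept (0.24). The gene span of EPHA5 overlaps the opposite-strand entry EPHA5-AS1 (210 to 308 reads a library). That of EPHB4 overlaps SLC12A9, also on the opposite strand (664 to 1627 reads a library). Overlaps given here are of whole gene spans, and shared exons were not examined. Whether the counting used strand is not given in the sources used here, so whether reads of such pairs were mixed is not known.

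EPHA8 passed the filter through the 13.8 group alone, where it was highest, so its values are a description. It had 21 reads in control cells, 10 with 13.6 and 35 with 13.8, and the ratio of 13.6 to 13.8 was 0.321 (exact 95% interval 0.142 to 0.663, counting error only). That difference was called, at -1.60 (SE 0.59, adjusted p = 0.0314), and the call was lost with no filter (-1.59). It also did not hold without replicate 1 (-1.39) or 2 (-1.50) of 13.6, or replicate 1 (-1.61), 2 (-1.56) or 3 (-1.63) of 13.8. EPHB2, EPHB3 and EPHB6 were tested and not called in any comparison. Their CPM ranged from 0.234 to 0.501 for EPHB2, 3.52 to 6.13 for EPHB3 and 0.0260 to 0.247 for EPHB6. The receptors not tested were EPHA1 (0 to 1 read a library), EPHA6 (0 to 17) and EPHB1 (1 to 19). EPHA6 went from 2 reads in control cells to 34 with 13.8, a ratio of 14.3 (3.65 to 122), and EPHB1 from 7 to 35, a ratio of 4.19 (1.84 to 11.2).

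**Figure D2:**
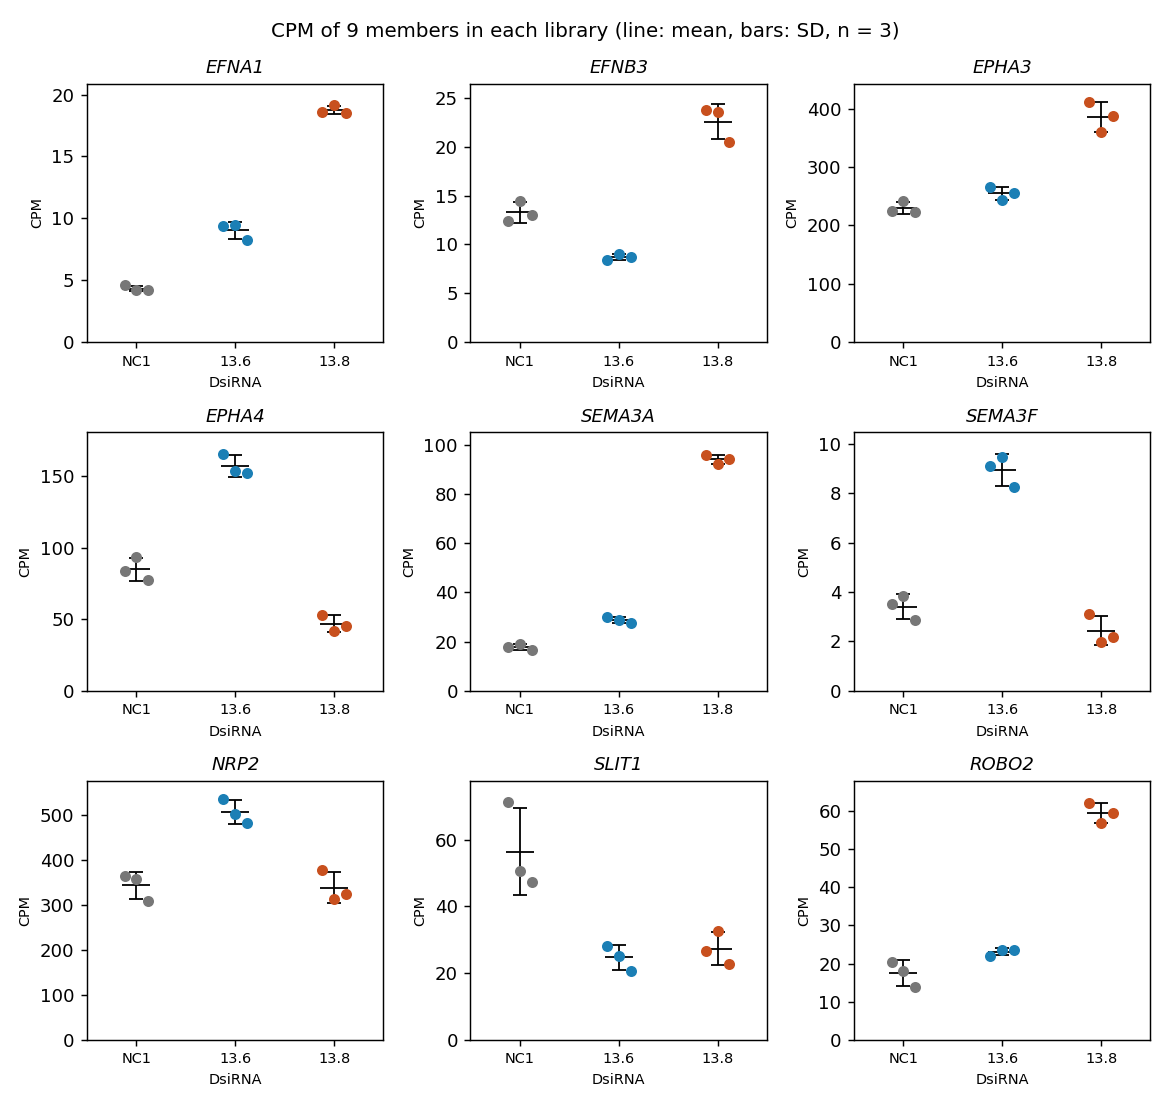
CPM (vertical axes, from 0) of 9 guidance genes in each of the 9 libraries, by DsiRNA, with the mean and SD of 3 libraries. EFNA1, SEMA3A and ROBO2 step up from control through 13.6 to 13.8, while EFNB3, EPHA4 and SEMA3F lie on opposite sides of the control with 13.6 and 13.8, with SEMA3F replicate 1 of 13.8 inside the control range.

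The secreted class 3 semaphorins, of which 6 of 7 were tested, had 4 higher and 1 lower with 13.6 (median 0.82) and 5 higher and 1 lower with 13.8 (median 0.72). That is 83.3% called with 13.6 and 100% with 13.8, against 49.9% and 55.5% of all genes. SEMA3C held 84.2% of the summed class 3 level per exon length in control cells, 70.8% with 13.6 and 65.3% with 13.8. SEMA3A held 8.20%, 13.8% and 28.2%. The sum was 26.1 ± 1.77 CPM per kilobase of exon in control cells, 25.0 ± 0.397 with 13.6 and 40.2 ± 0.486 with 13.8 (SD, n = 3).

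SEMA3A, the prototype axon repellent that acts through NRP1, measured 17.8, 19 and 16.4 CPM in control cells, 29.8, 28.6 and 27.6 with 13.6 and 95.9, 92.2 and 94.3 with 13.8. The groups were separate and narrow. SEMA3A rose 1.62-fold with 13.6, by 0.70 (SE 0.07, adjusted p = 3.0e-06), and 5.31-fold with 13.8, by 2.41 (SE 0.07, adjusted p = 1.3e-10). The difference between the DsiRNAs was -1.71 (SE 0.07, adjusted p = 5.6e-10). SEMA3C, which binds both neuropilins, measured 124, 105 and 119 CPM in control cells, 94.5, 91.9 and 93.3 with 13.6 and 140, 137 and 138 with 13.8. No groups overlapped, although the steps were small. SEMA3C was called lower with 13.6, at -0.31 (SE 0.07, adjusted p = 0.00129), and higher with 13.8, at 0.25 (SE 0.06, adjusted p = 0.00471), and the DsiRNAs differed by -0.57 (SE 0.07, adjusted p = 6.3e-06). SEMA3D, a class 3 semaphorin with roles in heart development, measured 1.56, 1.30 and 1.47 CPM in control cells, 3.30, 3.86 and 2.82 with 13.6 and 3.36, 3.91 and 3.54 with 13.8. Both knockdown groups lay above all controls and overlapped each other, with rises of 1.20 (SE 0.17, adjusted p = 6.4e-05) and 1.32 (SE 0.17, adjusted p = 2.0e-05) and a difference of -0.12 that did not pass. SEMA3A lies between SEMA3E and SEMA3D in RefSeq order, with 3 protein-coding genes between SEMA3C and SEMA3E. SEMA3E, which signals through PLXND1 without a neuropilin, was not tested, with 4 reads in control cells, 13 with 13.6 and 20 with 13.8.

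SEMA3F, the NRP2 ligand, measured 3.51, 3.85 and 2.86 CPM in control cells, 9.11, 9.48 and 8.25 with 13.6 and 3.09, 1.99 and 2.20 with 13.8. The 13.6 libraries lay far above the rest, and the 13.8 libraries overlapped the controls. SEMA3F rose 2.63-fold with 13.6, by 1.39 (SE 0.16, adjusted p = 1.2e-05), and was called lower with 13.8, at -0.49 (SE 0.18, adjusted p = 0.0293). Its difference between the DsiRNAs was 1.89 (SE 0.17, adjusted p = 5.3e-07). The 13.8 call of SEMA3F did not hold in a fit of the 2 groups alone (-0.48), without control replicate 1 (-0.47) or 2 (-0.40), and without replicate 2 (-0.37) or 3 (-0.43) of 13.8. SEMA3B, which lies 3 protein-coding genes from SEMA3F and is described as a tumour suppressor with it, measured 2.81, 2.94 and 1.83 CPM in control cells, 3.08, 2.59 and 2.55 with 13.6 and 3.45, 3.97 and 4.04 with 13.8. Its 13.8 libraries were the highest. SEMA3B rose by 0.59 (SE 0.18, adjusted p = 0.0125) with 13.8, while 0.11 (SE 0.18, adjusted p = 0.641) with 13.6 did not pass. The SEMA3B difference of -0.48 (SE 0.18, adjusted p = 0.0307) did not hold without replicate 2 (-0.44) or 3 (-0.44) of 13.6, or replicate 2 (-0.45) or 3 (-0.44) of 13.8. SEMA3G, another NRP2 ligand, measured 1.15, 0.832 and 0.709 CPM in control cells, 1.36, 1.77 and 2.09 with 13.6 and 1.44, 2.05 and 1.36 with 13.8. Knockdown libraries all exceeded the controls, with rises of 0.95 (SE 0.27, adjusted p = 0.00943) and 0.84 (SE 0.26, adjusted p = 0.0154). The 13.8 call of SEMA3G did not hold without replicate 2 of 13.8 (0.63).

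Membrane-bound semaphorins, 12 of 13 tested, had 2 higher and 1 lower with 13.6 (median 0.03) and 5 higher and 2 lower with 13.8 (median 0.32). That is 25% called with 13.6 and 58.3% with 13.8, against 49.9% and 55.5% of all genes. In the direct comparison 0 were higher and 7 lower with 13.6, which is 58.3% called against 61.1% of all genes. SEMA4C and SEMA5A dominated per exon length, at 80.6 ± 1.55 and 53.4 ± 7.37 CPM per kilobase of exon in control cells, or 45.6% and 30.0% of the sum. SEMA6D followed at 14.5 ± 1.73.

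SEMA6B, a transmembrane ligand of A-type plexins, had the largest rise of this class with 13.8. It measured 15.5, 12.9 and 12.1 CPM in control cells, 14.4, 13.2 and 13.6 with 13.6 and 31.3, 30.5 and 31.2 with 13.8, so that control and 13.6 libraries overlapped and those of 13.8 stood apart. SEMA6B rose by 1.20 (SE 0.09, adjusted p = 1.6e-07) with 13.8, while 0.02 (SE 0.09, adjusted p = 0.852) with 13.6 did not pass, and the DsiRNAs differed by -1.17 (SE 0.09, adjusted p = 1.6e-07). SEMA4F measured 16.8, 20.4 and 14.5 CPM in control cells, 27.6, 28.9 and 26.5 with 13.6 and 36.1, 34.9 and 34.7 with 13.8. All groups were separate, with rises of 0.68 (SE 0.10, adjusted p = 1.1e-04) and 1.03 (SE 0.10, adjusted p = 1.9e-06) and a difference of -0.35 (SE 0.10, adjusted p = 0.00828). SEMA7A, the lipid-anchored ligand of PLXNC1 and of beta1 integrin, measured 14.2, 14.5 and 12.5 CPM in control cells, 20.4, 19.2 and 20.3 with 13.6 and 25.6, 22.4 and 18.9 with 13.8. Both knockdown groups lay above the controls and overlapped each other. SEMA7A rose by 0.54 (SE 0.11, adjusted p = 9.3e-04) and 0.70 (SE 0.11, adjusted p = 9.2e-05), and its difference of -0.16 passed without replicate 3 of 13.8 (-0.26).

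SEMA4B measured 21.8, 21.4 and 15.7 CPM in control cells, 23.8, 23.9 and 22.3 with 13.6 and 32.5, 33.5 and 30.2 with 13.8. SEMA4B rose by 0.71 (SE 0.11, adjusted p = 9.0e-05) with 13.8 and differed between the DsiRNAs by -0.46 (SE 0.11, adjusted p = 0.00217). The 13.6 change of 0.25 (SE 0.11, adjusted p = 0.0709) did not pass, but did with no filter (0.26) or without control replicate 1 (0.33). SEMA6D, a ligand of PLXNA1, measured 121, 108 and 95 CPM in control cells, 117, 106 and 108 with 13.6 and 169, 157 and 165 with 13.8. Only the 13.8 libraries of SEMA6D stood clear of the controls, with a rise of 0.60 (SE 0.08, adjusted p = 3.0e-05), against 0.03 with 13.6 that did not pass, and a difference of -0.57 (SE 0.08, adjusted p = 4.1e-05). SEMA4G measured 11, 14.1 and 9.05 CPM in control cells, 8.58, 9.29 and 9.83 with 13.6 and 14.5, 12.4 and 12.8 with 13.8. Its changes of -0.30 (SE 0.14, adjusted p = 0.0930) and 0.22 (SE 0.14, adjusted p = 0.191) did not pass, and both overlapped the controls, while the DsiRNAs differed by -0.52 (SE 0.14, adjusted p = 0.00540). The 13.6 value of SEMA4G passed without control replicate 3 (-0.44) and the 13.8 value without control replicate 2 (0.40). SEMA4G overlaps MRPL43 (2171 to 3091 reads a library) on the opposite strand.

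Called members of this class with smaller shifts were SEMA4C, SEMA5A and SEMA6C. SEMA4C, a PLXNB2 ligand, was lower with both DsiRNAs, at -0.31 and -0.15, and lower with 13.6 than with 13.8, with a difference of -0.16. Its 13.8 call (adjusted p = 0.0483) was lost under library totals (-0.15), no filter (-0.16), a mean of at least 50 reads (-0.12) and a fit of the 2 groups alone (-0.14). That call also did not hold without control replicate 1 (-0.16) or 2 (-0.14), replicate 1 of 13.6 (-0.16), or replicate 1 (-0.14), 2 (-0.17) or 3 (-0.16) of 13.8. The SEMA4C difference was lost with no filter (-0.14), without replicate 1 (-0.16) or 3 (-0.11) of 13.6, and without replicate 2 (-0.14) or 3 (-0.16) of 13.8. SEMA5A, a ligand of PLXNB3 with thrombospondin repeats, was lower with 13.8, at -0.39 (SE 0.10, adjusted p = 0.00489), while -0.19 with 13.6 and the difference of 0.19 did not pass. The 13.6 value of SEMA5A passed without control replicate 3 (-0.29). Its difference passed in a fit of the 2 groups alone (0.20), without control replicate 3 (0.20) and without replicate 1 of 13.8 (0.27). SEMA6C changed by -0.19 and 0.20, and its 13.8 value passed without control replicate 1 (0.46). The SEMA6C difference of -0.39 (adjusted p = 0.0499) was lost with DESeq2 size factors (-0.39). It also did not hold without control replicate 2 (-0.40), without replicate 1 (-0.46), 2 (-0.37) or 3 (-0.35) of 13.6, and without replicate 1 (-0.41), 2 (-0.42) or 3 (-0.34) of 13.8. SEMA4A (0.0727 to 0.397 CPM), SEMA4D (1.30 to 3.85) and SEMA6A (68.1 to 118) were tested and not called, and SEMA5B was not tested (1 to 10 reads a library).

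Of the semaphorin receptors, NRP2 carried nearly all neuropilin reads, 100% of the neuropilin level per exon length in control cells and 99.9% with each DsiRNA. NRP2 binds SEMA3F and the lymphatic growth factor VEGF-C. It measured 365, 357 and 309 CPM in control cells, 537, 504 and 482 with 13.6 and 378, 314 and 324 with 13.8. The 13.6 libraries lay above all others, while 13.8 and control overlapped. NRP2 rose by 0.56 (SE 0.08, adjusted p = 1.1e-04) with 13.6, its 13.8 change of -0.02 (SE 0.08, adjusted p = 0.856) did not pass, and the DsiRNAs differed by 0.58 (SE 0.08, adjusted p = 5.2e-05). NRP1, the SEMA3A co-receptor, had 7 reads in the 3 control libraries together, 41 with 13.6 and 33 with 13.8. These are ratios of 5.53 (exact 95% interval 2.45 to 14.6, counting error only) and 3.95 (1.72 to 10.6). NRP1 passed the filter only through the 13.6 group, where it was high, so its fitted calls (2.41 and 1.94) are given as a description. The 13.8 call of NRP1 did not hold without control replicate 1 (2.08) or 2 (1.43), or replicate 1 of 13.8 (1.54).

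Among the plexins, 44.4% were called with 13.6 and 77.8% with 13.8, against 49.9% and 55.5% of all genes. Plexins had 2 of 9 higher and 2 lower with 13.6 (median 0.21) and 3 higher and 4 lower with 13.8 (median 0.16). PLXNC1, PLXNB2 and PLXNA1 were the highest per exon length in control cells, at 29.9 ± 4.26, 23.3 ± 3.37 and 23.2 ± 2.44 CPM per kilobase of exon, and PLXNB2 and PLXNA1 did not differ beyond their SD. Together the plexins summed to 90.9 ± 12.4 in control cells, 108 ± 2.47 with 13.6 and 88.2 ± 8.52 with 13.8.

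PLXNC1, the SEMA7A receptor of pigment cells, measured 249.8, 258 and 196 CPM in control cells, 287, 265 and 295 with 13.6 and 196, 143 and 163 with 13.8. The 13.6 libraries lay above and the 13.8 libraries at or below the lowest control. PLXNC1 was called lower with 13.8, at -0.49 (SE 0.12, adjusted p = 0.00380), and the DsiRNAs differed by 0.75 (SE 0.12, adjusted p = 1.4e-04). Its 13.6 change of 0.27 (SE 0.12, adjusted p = 0.0786) did not pass, but did in a fit of the 2 groups alone (0.28) and without replicate 1 (0.27) or 2 (0.27) of 13.8. PLXNC1 overlaps CEP83 (505 to 718 reads a library) on the opposite strand. PLXND1, the SEMA3E receptor, measured 12.3, 11.2 and 10.7 CPM in control cells, 13.3, 13.2 and 13.9 with 13.6 and 22, 18.9 and 18.2 with 13.8. PLXND1 rose by 0.79 (SE 0.09, adjusted p = 9.1e-06) with 13.8 and differed between the DsiRNAs by -0.55 (SE 0.09, adjusted p = 1.5e-04). All its 13.6 libraries exceeded the controls, yet the change of 0.23 (SE 0.09, adjusted p = 0.0526) did not pass, but did in a fit of the 2 groups alone (0.24), with a mean of at least 50 reads (0.24), without control replicate 1 (0.29) or without replicate 1 of 13.8 (0.24). PLXNB1, the SEMA4D receptor, measured 15.8, 14.5 and 11.8 CPM in control cells, 20.7, 20 and 22.3 with 13.6 and 22.6, 21.5 and 17.9 with 13.8. Every knockdown library exceeded every control, with rises of 0.58 (SE 0.11, adjusted p = 9.2e-04) and 0.56 (SE 0.11, adjusted p = 0.00104).

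PLXNB3, the SEMA5A receptor, was lower with both DsiRNAs. It measured 36.3, 34.5 and 25.8 CPM in control cells, 20.9, 20.8 and 21.5 with 13.6 and 23.8, 24 and 20.8 with 13.8, without overlap of the controls. The changes were -0.61 (SE 0.11, adjusted p = 4.9e-04) and -0.49 (SE 0.11, adjusted p = 0.00193). PLXNB3 overlaps SRPK3, which had 2 to 8 reads a library, on the same strand. PLXNA3 measured 44.1, 36.7 and 27.8 CPM in control cells, 25.8, 21.4 and 23.4 with 13.6 and 31, 26.9 and 25.7 with 13.8, with a control range wider than the knockdown groups. PLXNA3 was called lower with both, at -0.62 (SE 0.14, adjusted p = 0.00317) and -0.38 (SE 0.14, adjusted p = 0.0379). Its 13.8 call was lost with no filter (-0.39), a mean of at least 50 reads (-0.35) or a fit of the 2 groups alone (-0.37). It also did not hold without control replicate 1 (-0.21) or 2 (-0.37), or replicate 2 (-0.36) or 3 (-0.33) of 13.8. The PLXNA3 difference of -0.24 passed in a fit of the 2 groups alone (-0.24) and without control replicate 3 (-0.24). PLXNA3 overlaps LAGE3 (1475 to 2492 reads a library) on the opposite strand.

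PLXNA1, a signalling partner of the neuropilins, measured 226, 219.5 and 185 CPM in control cells, 300.3, 297 and 292 with 13.6 and 277, 228 and 235 with 13.8. The 13.6 libraries were highest, with a rise of 0.50 (SE 0.09, adjusted p = 3.5e-04). The 13.8 rise of 0.23 (SE 0.09, adjusted p = 0.0373) did not hold in a fit of the 2 groups alone (0.24), without control replicate 3 (0.14), without replicate 1 (0.23), 2 (0.23) or 3 (0.23) of 13.6, and without replicate 1 of 13.8 (0.14). The PLXNA1 difference of 0.27 (SE 0.09, adjusted p = 0.0157) did not hold without replicate 2 (0.22) or 3 (0.24) of 13.8. PLXNA2 changed by -0.02 with 13.6, which did not pass, and was called lower with 13.8, at -0.44 (SE 0.14, adjusted p = 0.0208), although its 13.8 and control libraries overlapped. That call did not hold without control replicate 1 (-0.32) or 2 (-0.39), or replicate 2 (-0.39) or 3 (-0.36) of 13.8. The PLXNA2 difference of 0.41 did not hold without replicate 1 (0.37) or 2 (0.41) of 13.6, or replicate 2 (0.36) or 3 (0.34) of 13.8. PLXNB2 (125 to 176 CPM) and PLXNA4 (0.0220 to 0.346 CPM) were tested and not called.

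**Figure D3:**
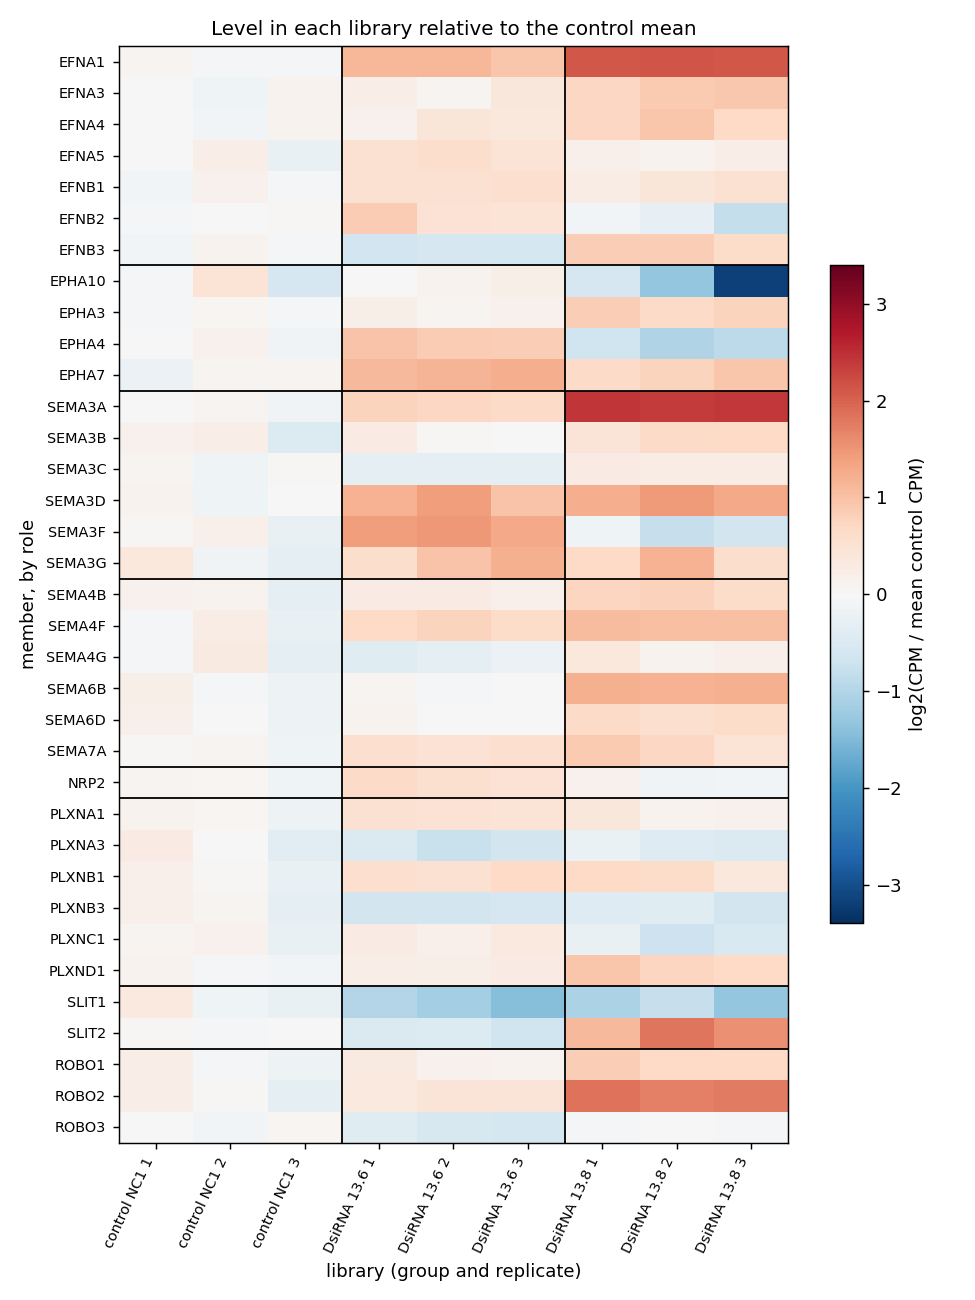
Log2 ratio of each library's CPM to the control mean (colour, red above and blue below) for the 35 called guidance genes with a log2 change of at least 0.5 in a called comparison and at least 1 CPM in a group; rows are grouped by role and columns by DsiRNA and replicate. SEMA3A and EFNA1 are deep red in the 3 libraries of 13.8, and SEMA3F and EPHA4 are red with 13.6 and blue with 13.8.

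In the SLIT and ROBO system the ligand SLIT1 was lower with both DsiRNAs, while the receptor ROBO1 was higher with 13.8 and ROBO2 with both. SLIT1 held 95.5% of the SLIT level per exon length in control cells, 92.5% with 13.6 and 82.4% with 13.8. The SLIT sum was 7.13 ± 1.60 CPM per kilobase of exon in control cells, 3.22 ± 0.470 with 13.6 and 4.01 ± 0.722 with 13.8 (SD, n = 3). The ROBO sum was 37.9 ± 4.80, 41.2 ± 2.87 and 62.3 ± 3.39, of which ROBO1 held 81.2%, 85.2% and 81.8%.

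SLIT1, a repellent expressed mainly in the nervous system, measured 71.4, 50.6 and 47.5 CPM in control cells, 28.2, 25.2 and 20.6 with 13.6 and 26.7, 32.6 and 22.8 with 13.8. Control replicate 1 was the highest library, and every knockdown library lay below every control. SLIT1 fell with both, at -1.20 (SE 0.17, adjusted p = 1.5e-04) and -1.05 (SE 0.17, adjusted p = 3.2e-04), and the difference of -0.15 did not pass. SLIT2, which acts through ROBO1 and ROBO2, measured 1.43, 1.35 and 1.42 CPM in control cells, 0.994, 1.01 and 0.880 with 13.6 and 3.03, 4.97 and 4.09 with 13.8. All groups were separate, with 13.8 highest and 13.6 lowest. SLIT2 rose 2.88-fold with 13.8, by 1.52 (SE 0.20, adjusted p = 2.2e-05), and the DsiRNAs differed by -2.07 (SE 0.20, adjusted p = 1.6e-06). Its 13.6 change of -0.54 (SE 0.22, adjusted p = 0.0590) did not pass, but did under library totals (-0.58) and without replicate 1 of 13.8 (-0.54). SLIT3 (0.636 to 1.46 CPM) was tested and not called.

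ROBO1, the main ROBO receptor of these cells, measured 281, 231 and 213 CPM in control cells, 299.5, 265 and 260.3 with 13.6 and 428, 384 and 384 with 13.8. The 13.8 libraries stood above all others, and 13.6 and control overlapped. ROBO1 rose by 0.72 (SE 0.10, adjusted p = 2.8e-05) with 13.8 and differed between the DsiRNAs by -0.53 (SE 0.10, adjusted p = 3.0e-04). The 13.6 change of 0.19 (SE 0.10, adjusted p = 0.119) passed without control replicate 1 (0.31). ROBO2, its neighbour in RefSeq order, measured 20.5, 18 and 13.9 CPM in control cells, 22, 23.5 and 23.6 with 13.6 and 62.2, 57 and 59.4 with 13.8. The groups rose in steps without overlap. ROBO2 rose 3.41-fold with 13.8, by 1.77 (SE 0.11, adjusted p = 3.0e-08), and by 0.40 (SE 0.11, adjusted p = 0.00937) with 13.6, and the difference was -1.37 (SE 0.11, adjusted p = 2.2e-07). Without control replicate 3, the lowest control, the 13.6 rise of ROBO2 was 0.26 and still called. ROBO3, a divergent family member of crossing axons, measured 26.7, 24.6 and 27.6 CPM in control cells, 19.7, 18 and 17.4 with 13.6 and 25.2, 26.5 and 25.2 with 13.8. Only the 13.6 libraries of ROBO3 lay clear of the controls, with a change of -0.52 (SE 0.08, adjusted p = 9.2e-05), against -0.04 with 13.8 that did not pass, and a difference of -0.48 (SE 0.08, adjusted p = 1.1e-04). ROBO4, the endothelial family member, was not tested (0 to 2 reads a library).

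**Figure D4:**
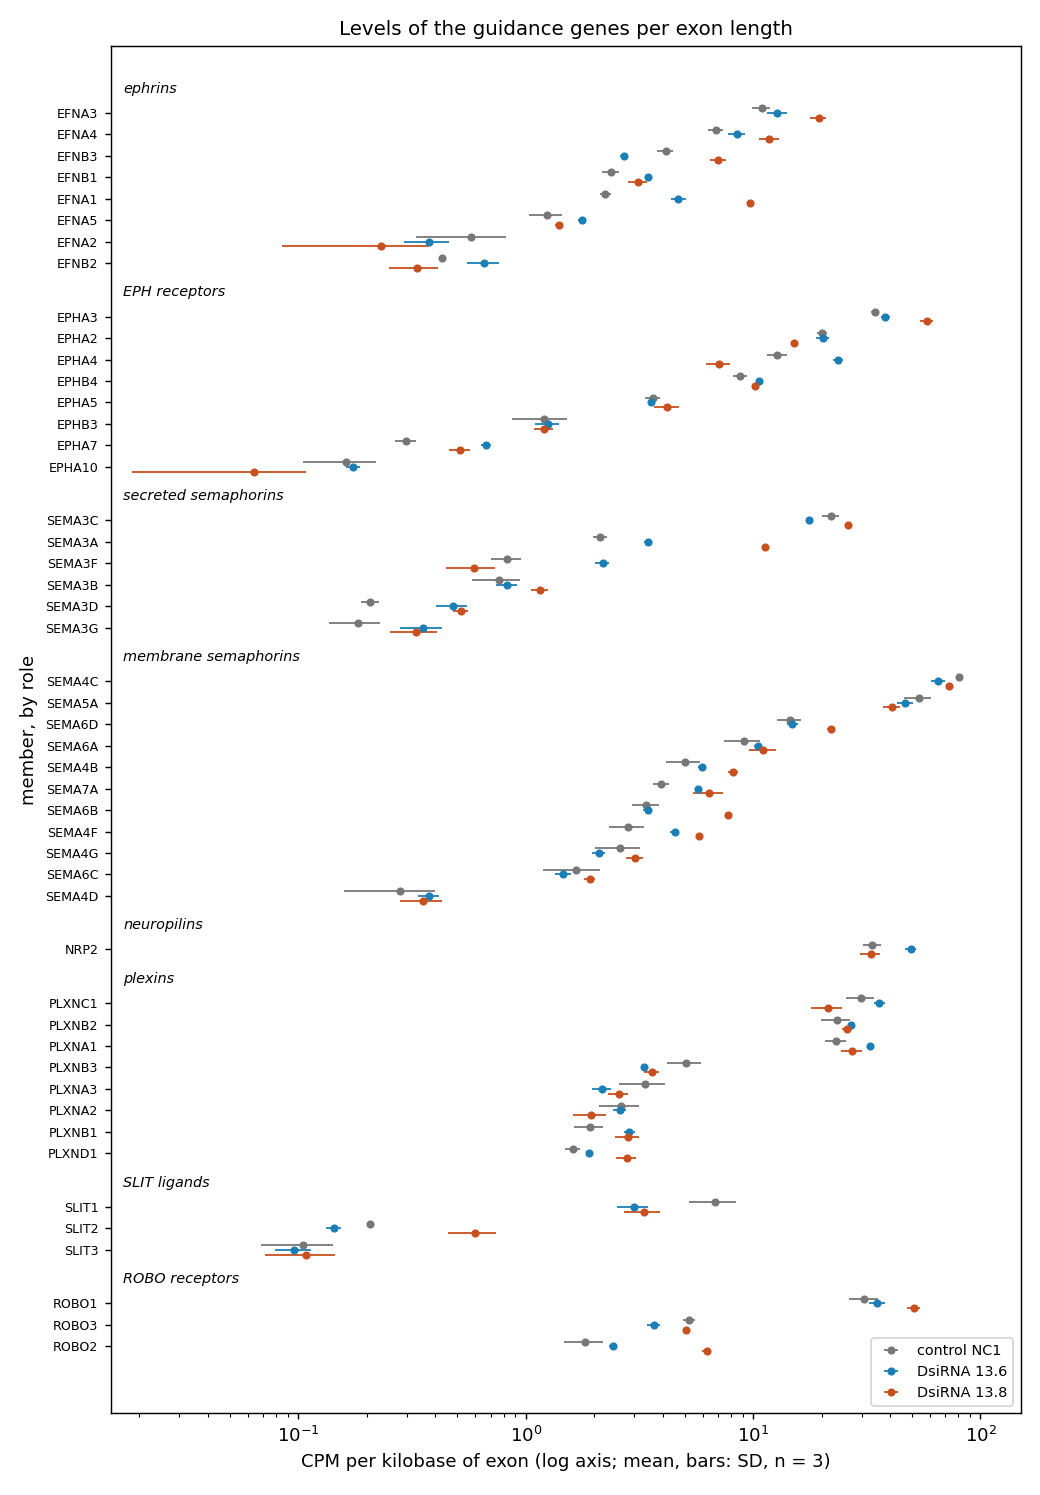
Mean CPM per kilobase of exon (log axis, bars of SD, n = 3) of the guidance genes that reached 0.1 in a group, ordered within each role by the control level. SEMA4C, SEMA5A, EPHA3, NRP2, ROBO1 and PLXNC1 are the highest of their roles or next to it in control cells. The mean of EPHA4 lies above that of EPHA2 with 13.6, and the mean of PLXNC1 lies below those of PLXNA1 and PLXNB2 with 13.8.

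Known effectors and partners of these genes, inside the cell and at its surface, did not move in 1 direction. Of 26 tested effectors and proteases of Eph signalling, 10 were higher and 5 lower with 13.6 (median 0.18), and 8 higher and 5 lower with 13.8 (median 0.13). SDCBP, the syntenin scaffold that binds B-type ephrins, was higher with 13.6 (0.90) and lower with 13.8 (-0.53). ADAM10, the protease that sheds ephrins, was higher with 13.6 (0.77), and 0.15 with 13.8 did not pass. The adaptor SHC1 (0.22 with 13.6 and 0.58 with 13.8) and the Rac regulator CHN1 (0.63 and 0.50) were higher with both. The kinase ABL1 (-1.22) and STAT3 (-0.76) were lower with 13.6, while -0.17 and -0.07 with 13.8 did not pass, and the kinase ABL2 was lower with both (-0.84 and -1.54). Without replicate 1 of 13.6, 3 of these effectors were lower with 13.6 in place of 5.

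Of 31 tested semaphorin, plexin and neuropilin effectors, 8 were higher and 11 lower with 13.6 (median -0.02), and 10 higher and 8 lower with 13.8 (median 0.07). The GTPase gene RAP1B was higher (1.37 with 13.6 and 1.28 with 13.8) and its close relative RAP1A lower (-1.08 and -0.88). ITGB1, the beta1 integrin that SEMA7A binds, was higher with both (1.02 and 0.86). MICAL1, an actin-oxidising enzyme, was lower with both (-0.82 and -0.51), as was ARHGEF12, an exchange factor for small GTPases bound by B-type plexins (-0.31 and -1.37). The 11 lower with 13.6 became 7 without control replicate 1 and 6 without replicate 2 of 13.6. The 10 higher with 13.8 became 6 without replicate 1 or 3 of 13.8.

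Of 21 tested SLIT and ROBO effectors, 9 were higher and 6 lower with 13.6 (median 0.07), and 9 higher and 8 lower with 13.8 (median -0.14). RHOA was higher with both (1.06 and 0.83), as were the SLIT-binding proteoglycan gene GPC1 (1.19 and 0.89) and the dystroglycan gene DAG1 (0.77 and 1.15). The GTPase genes CDC42 and RAC1 were called in opposite directions, CDC42 at -0.79 with 13.6 and 0.55 with 13.8, and RAC1 at 0.55 with 13.6 and -0.49 with 13.8. ABL1 and ABL2, which also belong to the Eph list, were the other lower leaders.

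Of the netrin, RGM and FLRT genes, guidance cues outside the chosen families, 9 of 19 were tested. With 13.6, 5 were higher and 0 lower (median 0.48), and with 13.8, 7 were higher and 1 lower (median 1.41). The netrin gene NTN1 was higher with both (1.51 and 0.60). FLRT3, an adhesion molecule, was higher with 13.8 (2.07), while -0.28 with 13.6 did not pass, and its relative FLRT2 was higher with 13.6 (0.46) and lower with 13.8 (-0.30). The FLRT2 call with 13.8 was the list's only lower one and was lost, leaving 0, without control replicate 1, without replicate 2 or 3 of 13.8 and in a fit of the 2 groups alone. The others called higher with 13.8 were NTN4 (1.41), NTNG2 (1.85), NEO1 (0.74), UNC5B (1.70) and RGMA (4.19, SE 0.66). NTNG2 (1.30) and NEO1 (0.54) were also called higher with 13.6. The 13.6 value of RGMA was 0.48 (SE 0.98) and did not pass, and which groups carried RGMA past the filter was not examined. All list counts stand beside 24.9% higher and 25% lower among all genes with 13.6, and 27.5% and 27.9% with 13.8.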

How the data were processed

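Bulk RNA-seq was read from the table of raw counts per gene deposited for the series. Its 9 columns were matched to samples by the labels' description field. Libraries were made with a strand-keeping kit, per the labels' protocols. The submitters' processing notes name cutadapt, FastQC, STAR, HTSeq and DESeq2 and build hg19. No source used here gives tool versions, the annotation or the strand setting. The normalized table was not used here. Some marker results are not reported here.

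After 16 exact repeats were dropped, 25382 entries remained, of which 28 had date-like names (0.20% of counts). The main test was edgeR 4.0.16 in R 4.3.3 (quasi-likelihood, TMM scaling, default low-count filter), fitted to all 9 libraries with group as the term and 6 residual degrees of freedom. P-values of each of 3 comparisons were adjusted by Benjamini-Hochberg over 14731 genes. The procedure was tested on simulated data. CPM use TMM-scaled totals. Levels per exon length are CPM over the merged exon length in GENCODE v29, by symbol. Intervals on read ratios are exact binomial at 95% and cover counting error only.

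The guidance genes, the gene lists and the tests were chosen with earlier results of these data known. Every called member is named. Members called with a log2 change of at least 0.5 and at least 1 CPM in a group are given for every library. Of each pathway list, up to 2 genes in each direction with the smallest adjusted p are named per DsiRNA. NTN4, NTNG2, NEO1, UNC5B and RGMA were added after they were seen. So were the values of list genes with the DsiRNA that the rule did not name them for. Alternatives were DESeq2 1.42.0, limma 3.58.1 (voom), other scalings, filters and thresholds, a fit of only the groups compared, a replicate block and leaving out each library.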

Additional observations from a re-analysis of the deposited data

Results flagged for a closer look

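Guidance genes called in opposite directions with the 2 DsiRNAs, for which the direct difference between DsiRNA 13.6 and 13.8 was itself called, were EFNB3, EPHA4, SEMA3C and SEMA3F. The differences (13.6 minus 13.8, log2) were -1.38 for EFNB3, 1.74 for EPHA4, -0.57 for SEMA3C and 1.89 for SEMA3F. In EFNB3, EPHA4 and SEMA3C no library of one group overlapped another group. In SEMA3F the 13.8 libraries overlapped the controls, and its 13.8 call (-0.49, edgeR adjusted p = 0.0293) was near the threshold. That call did not hold without control replicate 1 (-0.47) or 2 (-0.40), or replicate 2 (-0.37) or 3 (-0.43) of 13.8. TBX3 was itself 0.26 higher with 13.6 than with 13.8, and the part of that difference in these results was not tested.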

How the results depend on the processing

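Under an adjusted p of 0.01, the guidance genes lower with DsiRNA 13.8 fell from 12 to 6, and those higher with 13.6 than with 13.8 from 11 to 6. Over the alternatives that kept every library, this threshold among them, all genes called ran from 6322 to 8803 with 13.8. Between the DsiRNAs they ran from 7143 to 9581. Leaving out each of the 9 libraries in turn gave 6 to 12 lower with 13.8 and 7 to 12 higher with 13.6 than with 13.8. The same fits gave 18 to 22 higher and 7 to 9 lower with 13.6, 23 to 27 higher with 13.8, and 18 to 23 lower with 13.6 than with 13.8. Those ranges, and the counts under the other scalings, filters, DESeq2, limma-voom and the fit of only the groups compared, stayed within 1.5 times the main counts. For 138 values (45 called members and TBX3, in 3 comparisons), DESeq2 and limma-voom changed no call, and no alternative reversed a called direction. With the replicate number as a replicate block, 24 members were higher and 8 lower with 13.6, 27 higher and 12 lower with 13.8, and 12 higher and 23 lower with 13.6 than with 13.8, and 8 of the 138 calls were gained and 0 lost. Those gained with the block were EFNA3 (0.23), PLXND1 (0.24), ROBO1 (0.19), SEMA4B (0.26) and SEMA5A (-0.19) with 13.6, EPHA5 (0.20) with 13.8, and the differences of PLXNA3 (-0.24) and SEMA5A (0.19) between the DsiRNAs. Correlations of same-numbered libraries' deviations ran from -0.179 to 0.187, and the highest between different numbers was also 0.187. With the block, all genes called went from 7357 to 8010 with 13.6 and from 8169 to 8803 with 13.8. Between the DsiRNAs they went from 8995 to 9581. Whether the numbers pair the samples is therefore not settled. Members with under about 50 reads a group (EFNA2, EPHA8, EPHB2, EPHB6, NRP1, PLXNA4, SEMA4A and the 6 not tested) are limited by depth.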
